A study of Mus musculus with 10 samples.

Results

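The oligosaccharyl transferase is the enzyme complex of the endoplasmic reticulum (ER) that makes N-glycoproteins, and 10 genes for its subunits were followed here in parts of the mouse egg: Rpn1, Rpn2, Ddost, Dad1, Stt3a, Stt3b, Ostc, Krtcap2, Tusc3 and Magt1. Members were the probe sets that the platform annotation gives to exactly 1 gene, that gene being one of the 10. This gave 23 of the 45101 probe sets on the array, and 21 of the 23 passed a filter on dim signals, with at least 1 for each of the 10 genes. The family was chosen by the measured intensity of Rpn1, which stood higher in the spindle-chromosome complex than in the rest of the egg, so the Rpn1 values in comparisons with that complex are a description with no test.

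RNA came from ovulated metaphase II (MII) oocytes of female B6D2F1 mice given equine and then human chorionic gonadotropin, with cumulus cells taken off enzymatically. There were 3 arrays of the spindle-chromosome complex (SCC), the spindle with its chromosomes cut out by microsurgery (replicates 1 to 3). The cytoplast, the egg left after that removal, had 4 arrays (replicates 1 to 4), and the intact MII oocyte had 3 (replicates 2 to 4). No genotype, agent or age sets the groups apart: all came from the same cross and the same hormones. The title of the study names its question, the association of maternal mRNA with the spindle. The labels call the samples biological replicates without naming animals or pools, so a p-value takes in only how far these samples spread, which may be technical.

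In the ER, the transferase moves a preassembled glycan from the lipid dolichol onto asparagines of nascent proteins. Each complex has 1 catalytic subunit, STT3A or STT3B. The STT3A form sits at the protein translocon and acts while a chain is being made, and the STT3B form reaches sites that the first one skipped. An oocyte depends on the pathway for its zona pellucida proteins, which are heavily glycosylated.

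Promoters of 8 of the members, all but Ostc and Tusc3, were found in the RefSeq table of the GRCm38.p6 assembly. It holds 250 bases before to 50 bases after each start site. The promoters are shown for Rpn1, the gene that chose the family, and for Stt3a and Stt3b, the catalytic pair. Capitals mark a CCAAT box, the element bound by NF-Y, which on the opposite strand reads ATTGG.
Rpn1 (chr6:88084223-88084522, plus strand): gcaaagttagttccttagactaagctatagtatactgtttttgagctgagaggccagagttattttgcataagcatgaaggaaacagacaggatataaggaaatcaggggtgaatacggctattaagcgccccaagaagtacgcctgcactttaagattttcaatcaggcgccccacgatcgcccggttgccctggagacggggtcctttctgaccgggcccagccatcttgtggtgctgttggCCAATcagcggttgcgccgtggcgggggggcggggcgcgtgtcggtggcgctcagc
Stt3a (chr9:36767573-36767872, minus strand): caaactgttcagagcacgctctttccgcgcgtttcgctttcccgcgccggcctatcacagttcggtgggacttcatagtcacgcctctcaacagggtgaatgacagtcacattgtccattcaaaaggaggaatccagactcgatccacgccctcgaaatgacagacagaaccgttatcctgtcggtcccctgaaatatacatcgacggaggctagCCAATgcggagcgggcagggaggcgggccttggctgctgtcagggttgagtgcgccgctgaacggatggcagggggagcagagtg
Stt3b (chr9:115310419-115310718, minus strand): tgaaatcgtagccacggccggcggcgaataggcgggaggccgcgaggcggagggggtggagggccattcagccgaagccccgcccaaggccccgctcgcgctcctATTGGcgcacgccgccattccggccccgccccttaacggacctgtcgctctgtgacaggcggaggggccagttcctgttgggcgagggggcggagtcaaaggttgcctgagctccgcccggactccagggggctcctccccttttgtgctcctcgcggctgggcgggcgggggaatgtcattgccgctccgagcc
The box lay 6 bases before the start site in Rpn1, 35 bases before it in Stt3a and 145 bases before it, on the opposite strand, in Stt3b. On either strand it occurred in 8 of the 10 promoters listed for these genes, covering all 8 genes, against 37.4% of the 32851 promoters in the table. The ER stress element, searched on both strands and itself containing a CCAAT box, was in 0 of the 10 against 0.119% of all. ER stress element II, which also overlaps a box, was in 1, that of Krtcap2, against 0.0365% of all. A match of letters is a description of the window and not a binding site.

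The values are array intensities on a linear scale, relative amounts within a sample. A smaller number of oocytes or oocyte parts and less RNA in each cannot be told apart in them. Background was set for each array at the 95th percentile of genes known from other tissues, a level between 96.1 and 163 over the 10 arrays. All 9 measured oocyte markers were above background on every array, and 0 to 2 of 18 cumulus cell markers were. The oocyte markers themselves had a median log2 difference of 0.45 between SCC and cytoplast, positive in 9 of 9 with 1 called, which was 0.13 after cyclic loess and 0.15 after quantile normalization with 0 called, and its part in the results was not tested. Summed cumulus marker intensity was 653 to 809 in the SCC, 588 to 724 in cytoplasts and 616 to 727 in MII oocytes, and its part was not tested either. The 95th percentile of an array's intensities was 623 to 797 units in the SCC, 526 to 634 in cytoplasts and 568 to 711 in MII oocytes. The actin probe sets, a measure of RNA integrity and amplification length, differed between 3′ and 5′ ends by 3.42 ± 0.20 log2 units in the SCC, against 4.62 ± 0.69 in cytoplasts and 3.85 ± 0.54 in MII oocytes (SD, n = 3, 4 and 3; by the exact two-sided permutation test of the SCC with the cytoplast p = 0.0571, adjusted p = 0.343 over 12 such tests). For the Gapdh probe sets the same difference was smaller between groups, 2.87 ± 0.48 in the SCC, 3.17 ± 0.56 in cytoplasts and 3.25 ± 0.09 in MII oocytes. The same permutation test of the SCC with the cytoplast gave p = 0.429 (adjusted p = 0.643). The part of either measure in the results below was not tested.

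**Figure D1:**
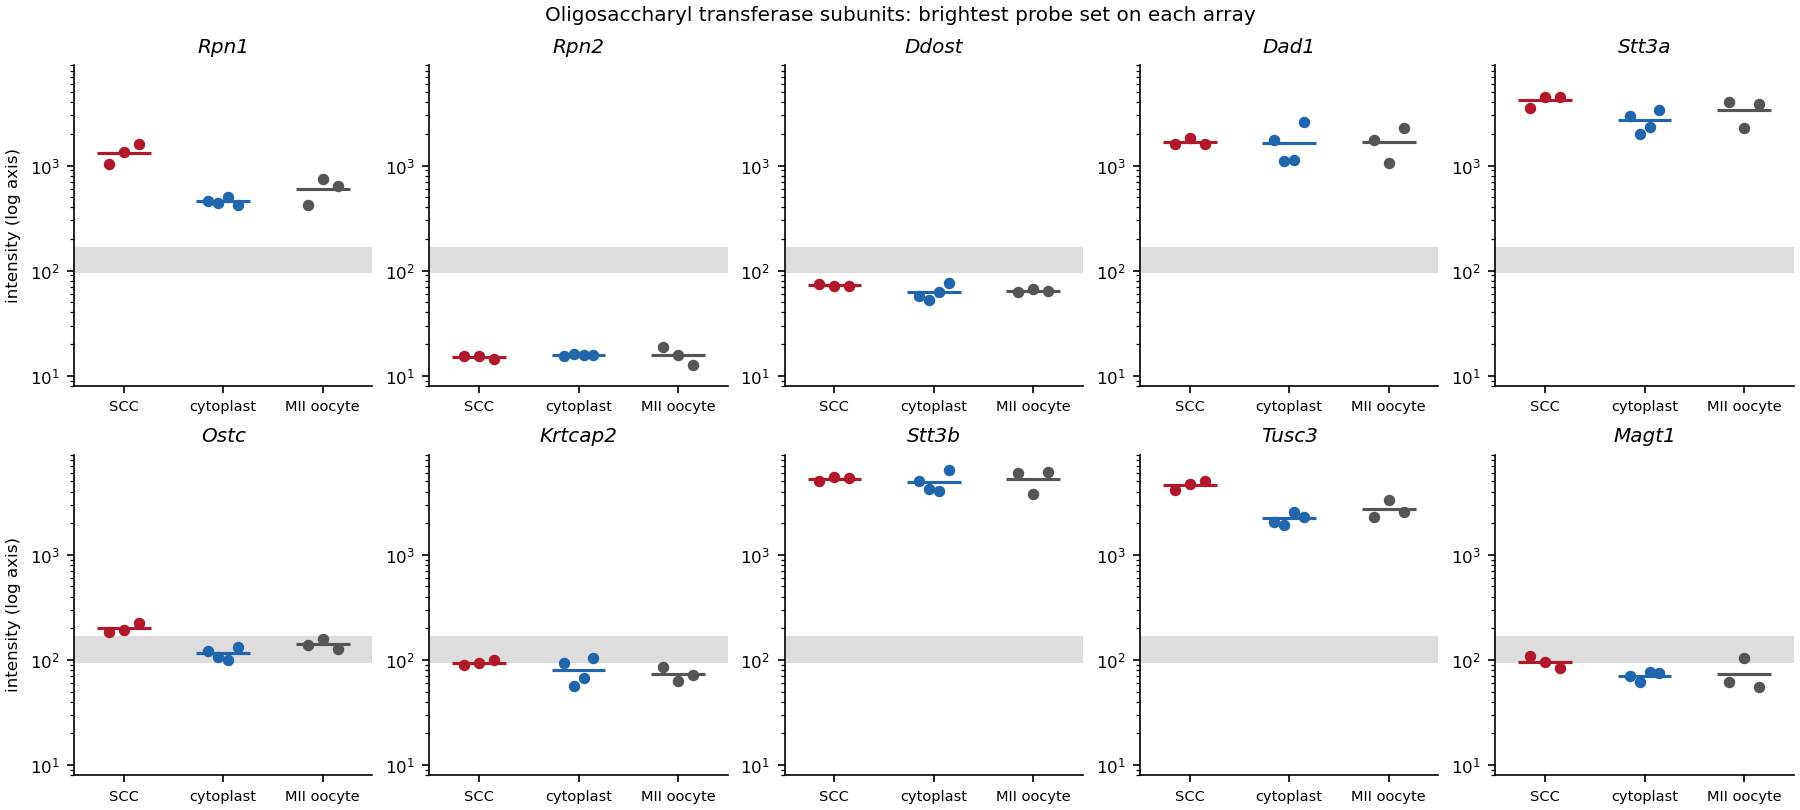
Intensity (log axis) of the brightest tested probe set of each of the 10 genes, 1 point per array, with bars at the group means and the background level as a grey band. For Rpn1, Stt3a, Ostc, Tusc3 and Magt1 all 3 SCC points lie above all 4 cytoplast points, and Rpn2, Ddost, Krtcap2 and Magt1 lie within or below the band.

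Rpn1, ribophorin I, is a shared subunit that feeds certain membrane proteins to the catalytic site. Its brightest probe set, 1439257_x_at, had 1035, 1344 and 1609 units in the SCC, against 456, 439, 501 and 425 in cytoplasts and 418, 742 and 639 in MII oocytes. The SCC arrays lay above every array of both other groups, which overlapped each other. The means were 1329 ± 287 in the SCC, 455 ± 33.0 in cytoplasts and 599.8 ± 165 in MII oocytes (SD, n = 3, 4 and 3). That is 2.88-fold the cytoplast (log2 difference 1.52, SE 0.20) and 2.24-fold the MII oocyte (1.17, SE 0.21), given as the values that chose the gene.

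Rpn1 has 6 tested probe sets, 4 of them of the x type, whose probes may also match other transcripts. The one named 1416470_a_at, which is not of that type, read 228, 278 and 250 units in the SCC, against 114, 113, 111 and 109 in cytoplasts and 82.8, 186 and 125 in MII oocytes, 2.25-fold the cytoplast. It gave a smaller ratio than the 3 brighter x-type sets (2.72-fold to 2.88-fold), with the SCC again above all other arrays. Outside the SCC this set lay near background, above it on 3 of 4 cytoplast and 2 of 3 MII oocyte arrays. The smaller ratio therefore cannot be assigned to the type of probe set. The dim set 1448353_x_at was above background on 1 of 3 SCC arrays and on none of the others, so no fold is given. The sixth, 1459778_at, stayed near 17 units everywhere (17.2 ± 1.0 in the SCC, 17.4 ± 2.7 in cytoplasts and 18.5 ± 3.0 in MII oocytes), below background. In the comparison of cytoplast with MII oocyte, which the choice did not use, Rpn1 did not pass the test (log2 difference -0.36, 95% interval -0.79 to 0.07, adjusted p = 0.926).

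**Figure D2:**
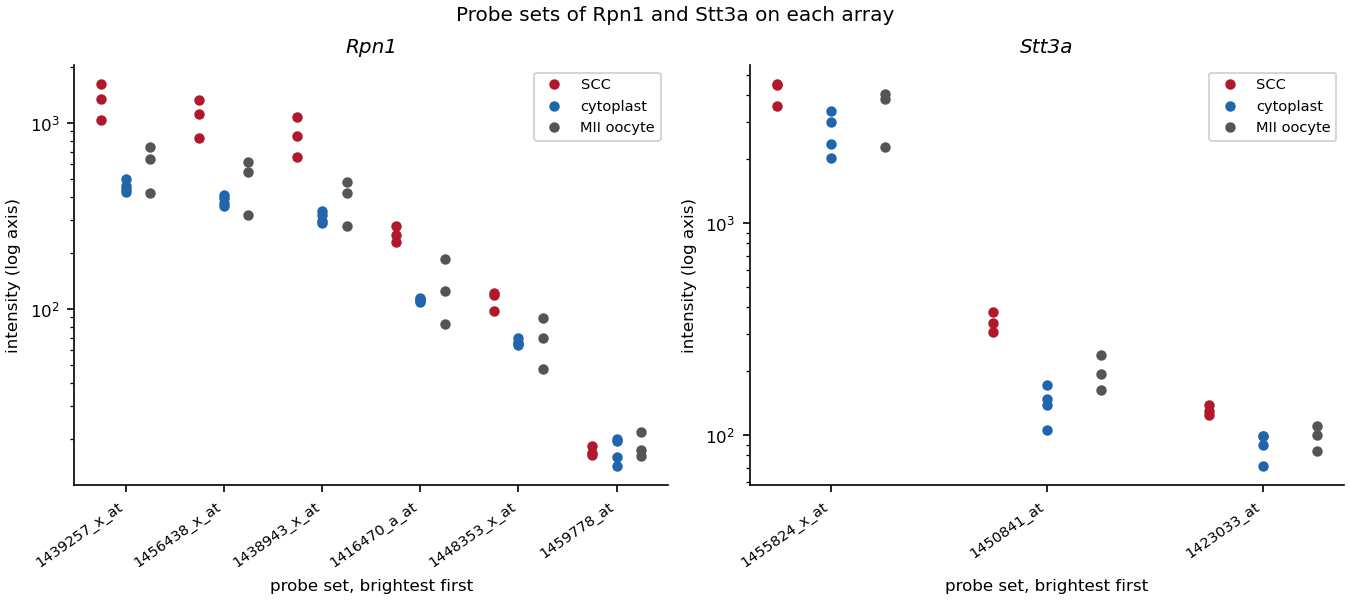
Intensity (log axis) of the tested probe sets of Rpn1 and Stt3a, brightest first, with 1 point per array in the SCC, the cytoplast and the MII oocyte. The SCC stands above the cytoplast in 5 of 6 Rpn1 sets and in all 3 Stt3a sets, by a margin that differs between sets of 1 gene.

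The other shared subunits did not pass. Rpn2, ribophorin II, another structural subunit, read 15.4, 15.3 and 14.4 units in the SCC, 15.3, 16.2, 15.8 and 15.7 in cytoplasts and 18.7, 15.6 and 12.5 in MII oocytes. These lie around the array medians (15.6 to 16.6), below background on every array, so its only probe set had no measurable signal in any group.

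Ddost, the subunit also called OST48, which helps hold the complex together, read 74.3, 71.9 and 72.0 units in the SCC, against 57.3, 52.9, 62.1 and 76.8 in cytoplasts and 62.1, 66.6 and 64.4 in MII oocytes. The SCC lay above the MII oocyte without overlap and overlapped the cytoplast through its replicate 4, with all values below background (adjusted p = 0.347 against the cytoplast and 0.691 against the MII oocyte).

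Dad1, the small subunit named as a defender against cell death, was bright and scattered. Its x-type set read 1598, 1817 and 1617 units in the SCC, 1737, 1111, 1136 and 2593 in cytoplasts and 1747, 1047 and 2268 in MII oocytes. The SCC arrays fell inside the range of both other groups (log2 difference from the cytoplast 0.12, 95% interval -0.55 to 0.79, adjusted p = 0.888). A second set, 1418528_a_at, averaged 447 ± 52.1 units in the SCC, against 344 ± 90.8 in cytoplasts and 336 ± 45.3 in MII oocytes (SD, n = 3, 4 and 3), and its adjusted p was 0.244 against the cytoplast and 0.441 against the MII oocyte.

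In the STT3A form, Ostc rose and the catalytic subunit differed between its 3 tested probe sets. Ostc, the small subunit also called DC2 that docks the complex at the translocon, read 183, 195 and 224 units in the SCC, against 122, 106, 99.9 and 133 in cytoplasts and 138, 159 and 126 in MII oocytes. All SCC arrays lay above all arrays of both other groups. Against the cytoplast that was 1.74-fold (log2 difference 0.80, SE 0.14, adjusted p = 0.00924), and against the MII oocyte 1.42-fold (0.51, SE 0.15, adjusted p = 0.183). The cytoplast values lay near background, with 3 of 4 arrays above it and replicate 3 just below (99.9 against 101). Without SCC replicate 3 the adjusted p against the cytoplast was 0.0551, and after quantile normalization 0.0503, both short of the threshold.

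Stt3a, the catalytic subunit of this form, was read by its brightest set, 1455824_x_at, at 3565, 4501 and 4472 units in the SCC, against 2993, 2015, 2349 and 3378 in cytoplasts and 4031, 2268 and 3840 in MII oocytes. The SCC stood above the cytoplast without overlap but did not pass (1.58-fold, log2 difference 0.66, 95% interval 0.17 to 1.15, adjusted p = 0.111). A set not of the x type, 1450841_at, read 306, 335 and 380 units in the SCC, against 147, 138, 171 and 106 in cytoplasts and 163, 237 and 194 in MII oocytes. It was 2.45-fold higher in the SCC than in cytoplasts (log2 difference 1.29, SE 0.18, adjusted p = 0.00423) and 1.73-fold the MII oocyte (0.79, SE 0.19, adjusted p = 0.138). Of the cytoplast arrays, 3 of 4 were above background for this set, and replicate 4 was below it. The third set, 1423033_at, averaged 131 ± 7.4 units in the SCC, against 89.7 ± 13.0 in cytoplasts and 98.3 ± 13.1 in MII oocytes. Only 2 of 3 SCC arrays and no cytoplast array were above background, so no fold is given. The set passed against the cytoplast (adjusted p = 0.0401), but not after cyclic loess (0.110) or quantile normalization (0.143). The filter left out 1 further set each of Stt3a and Ostc, at 6.2 to 7.4 and 8.2 to 11.98 units.

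Krtcap2, also called KCP2 and a partner of Ostc in the STT3A form, read 89.1, 92.5 and 99.4 units in the SCC, 94.1, 56.4, 67.1 and 105 in cytoplasts and 86.4, 63.5 and 71.5 in MII oocytes. It was below background on all arrays, overlapped between SCC and cytoplast and did not pass (adjusted p = 0.545). Its dimmer set averaged 43.0 units in the SCC, 42.5 in cytoplasts and 38.5 in MII oocytes (adjusted p = 0.956 for the SCC with the cytoplast).

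In the STT3B form, Tusc3 rose and the catalytic subunit did not pass. Tusc3, a thioredoxin-like oxidoreductase of this form, read 4099, 4738 and 5018 units in the SCC, against 2071, 1932, 2572 and 2283 in cytoplasts and 2264, 3315 and 2571 in MII oocytes. Its SCC arrays again stood above all others. Replicate 3 was the highest array within each of the 3 groups, as it was for the brightest Rpn1 set. Whether the arrays numbered 3 share a preparation is not given by the labels and was not tested. The SCC was 2.09-fold the cytoplast (log2 difference 1.06, SE 0.15, adjusted p = 0.00521) and 1.72-fold the MII oocyte (0.78, SE 0.16, adjusted p = 0.106). The call against the cytoplast was lost after cyclic loess (0.76, adjusted p = 0.0608) and after quantile normalization (0.77, adjusted p = 0.0617).

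Magt1, the paralog that can take the place of Tusc3, read 109, 94.7 and 84.1 units in the SCC, against 70.1, 61.5, 76.3 and 75.1 in cytoplasts and 61.7, 104 and 55.0 in MII oocytes. The SCC lay above the cytoplast without overlap, but only 1 of 3 SCC arrays and no cytoplast array was above background, and the test was not passed (adjusted p = 0.246).

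Stt3b, the catalytic subunit, read 5047, 5510 and 5343 units in the SCC, 5026, 4270, 4027 and 6354 in cytoplasts and 6005, 3748 and 6166 in MII oocytes. The 3 groups overlapped, and the log2 difference between SCC and cytoplast was 0.13 with a 95% interval of -0.30 to 0.56 (adjusted p = 0.789). A dimmer set, 1426343_at, averaged 202 ± 29.4 units in the SCC, 173 ± 46.8 in cytoplasts and 166 ± 25.3 in MII oocytes (adjusted p = 0.585 for the SCC against the cytoplast).

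Counted by the brightest set of each gene, 2 of the 9 genes other than Rpn1 rose in the SCC against the cytoplast, Ostc and Tusc3, and 0 fell, where 8.02% of the 12713 genes rose and 0.275% fell. By probe set, 4 of 15 rose and 0 fell, against 6.74% and 0.274% of 23737. All SCC arrays lay above all cytoplast arrays in 4 of the 9 genes (Stt3a, Ostc, Tusc3 and Magt1), against 15.5% of all genes. The same contrast chose the family, so nothing is read from these counts. The median log2 difference was 0.26 over the 9 genes, 0.02 over all genes and 0.28 over the 2833 genes with a mean log2 intensity above 8. Of the 9, only Dad1, Stt3a, Stt3b and Tusc3 are as bright as that, so the 9 are not like either set in intensity.

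Against the MII oocyte, 0 of the 9 genes passed by limma, where 0.0472% of all genes rose. At an unadjusted p below 0.05, 2 were higher in the SCC, Ostc and Tusc3, against 9.45% of all genes. SCC arrays lay above all MII oocyte arrays in 4 of 9 (Ddost, Ostc, Krtcap2 and Tusc3), against 9.14%. Both comparisons use the same 3 SCC arrays, so they are not separate evidence.

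Between the cytoplast and the MII oocyte no gene of the family passed by limma, and over all genes the share called was 0 as well. At an unadjusted p below 0.05 this was 0 of 10 genes, against 0.928% of all genes higher and 3.75% lower, and 1 of 21 probe sets, 1450841_at of Stt3a (log2 difference -0.50, SE 0.18, unadjusted p = 0.0156, adjusted p = 0.926), against 3.28% of probe sets lower in cytoplasts.

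**Figure D3:**
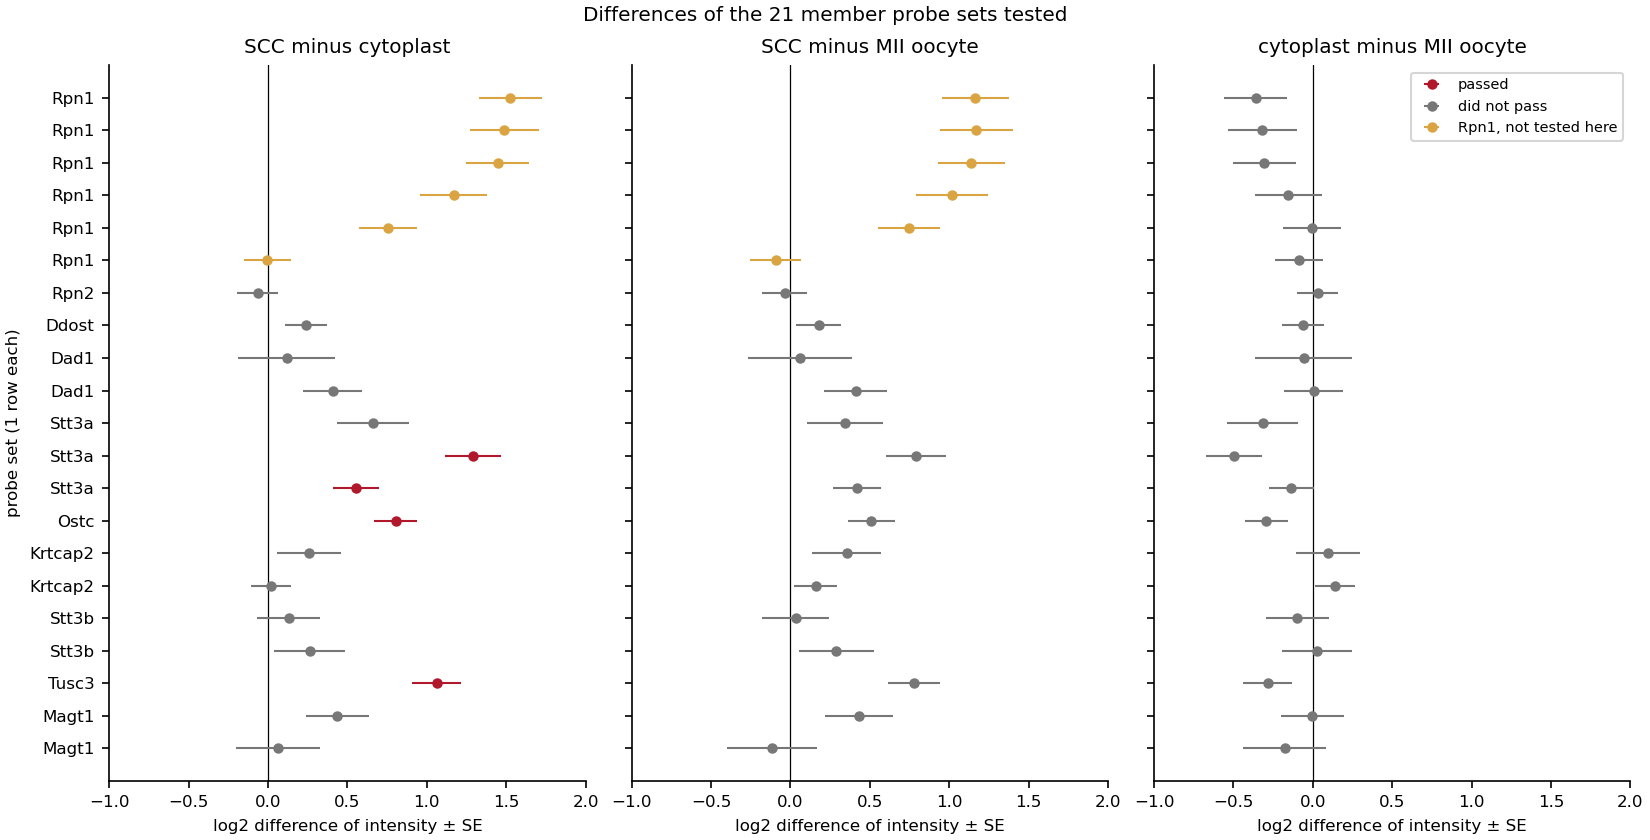
Log2 difference of intensity with its SE for each of the 21 tested probe sets, in 1 panel per comparison (SCC minus cytoplast, SCC minus MII oocyte, cytoplast minus MII oocyte). Red points passed the adjusted threshold, all 4 of them in the first panel, and the Rpn1 points in the panels with the SCC are shown untested.

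The bright probe sets of Dad1, Stt3a and Stt3b followed the controls added at hybridisation across the cytoplast and MII oocyte arrays, and less closely once the SCC arrays were included. The mean log2 level of those controls was 9.73, 9.78 and 11.06 on the SCC arrays, 10.42, 10.03, 9.66 and 10.90 on the cytoplast arrays and 10.88, 9.62 and 11.08 on the MII oocyte arrays. All 10 arrays, those of the SCC included, share the platform and the scaling. Over the 7 arrays of cytoplast and MII oocyte, Pearson's r with the control level was 0.93 for the bright Dad1 set. For the bright sets of Stt3a and Stt3b it was 0.91 and 0.99. It was -0.32 for Rpn1, -0.36 for Tusc3, 0.21 for Ostc and -0.39 for 1450841_at of Stt3a. Other sets of the same genes differed, with 0.69 for the second Dad1 set, 0.11 for 1423033_at of Stt3a and -0.72 for the dimmer Stt3b set. The Krtcap2 sets had 0.64 and 0.48, and the brighter Magt1 set -0.67. Over all 10 arrays it was 0.70 for the bright Dad1 set, 0.54 for that of Stt3a and 0.77 for that of Stt3b. These are descriptions with no test. With the control level as a covariate the bright Stt3a set passed between SCC and cytoplast (log2 difference 0.69, adjusted p = 0.0139), and 3 of the 9 genes did. Over all 23737 probe sets, 2732 rose and 285 fell with that covariate, against 1599 and 65 without it.

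**Figure D4:**
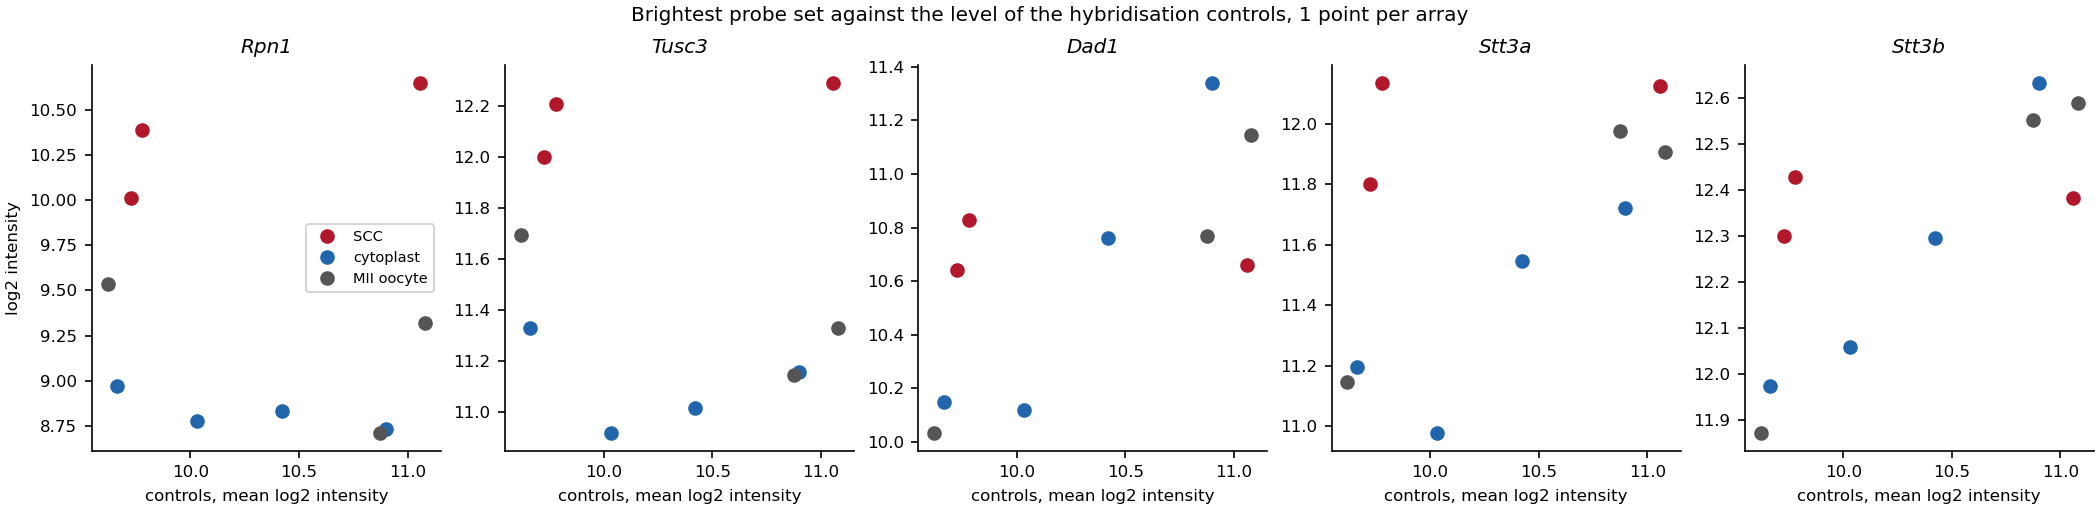
Log2 intensity of the brightest probe set of Rpn1, Tusc3, Dad1, Stt3a and Stt3b against the mean log2 level of the hybridisation controls, 1 point per array, coloured by group. Dad1, Stt3a and Stt3b climb with the control level across cytoplast and MII oocyte arrays, and Rpn1 and Tusc3 do not.

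The catalytic paralogs were also compared inside each array, where a factor common to both probe sets of an array drops out. Only the change of such a ratio between groups can be read, since levels of different probe sets are not comparable. The log2 ratio of Stt3a to Stt3b was -0.35 ± 0.13 in the SCC, against -0.88 ± 0.15 in cytoplasts and -0.66 ± 0.08 in MII oocytes (SD, n = 3, 4 and 3). It was 0.53 higher in the SCC than in cytoplasts, with no overlap (exact permutation test, two-sided, p = 0.0286, the smallest that 3 against 4 allows, adjusted p = 0.0857 over 6 comparisons). Read from sets not of the x type, a choice made after seeing the data, the difference was 1.16 (adjusted p = 0.114).

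Against MII oocytes the Stt3a to Stt3b ratio of the SCC was 0.31 higher (exact p = 0.1, the smallest that 3 against 3 allows, adjusted p = 0.12), so it passed in neither comparison after adjustment. The 6 comparisons also hold the ratio of Tusc3 to Magt1, whose values are not given because Magt1 was not above background on any cytoplast array.

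The genes whose log2 values followed Rpn1 most closely over the 10 arrays were Nsmce2, a SUMO ligase (Pearson's r 0.991), Ormdl1, a regulator of sphingolipid synthesis (0.990), Eif1b, a translation initiation factor (0.989), Adam9, a membrane metalloprotease (0.987), and Slc35a1, the CMP-sialic acid transporter (0.986). In the SCC they were 1.58-fold, 2.07-fold, 2.45-fold, 2.18-fold and 2.32-fold the cytoplast. Within the family, r with Rpn1 was 0.976 for Tusc3, rank 32 of 12712 genes, and 0.892 for Ostc, rank 614. Magt1 (0.634), Ddost (0.580), Stt3a (0.538) and Krtcap2 (0.307) followed it less closely, Stt3b (0.03) and Dad1 (-0.00038) hardly, and Rpn2, at background, had -0.397. The 10 arrays share group differences and scaling, so r is a measure of likeness and carries no p.

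Around the enzyme, 3 further subunits or partners were measured, and none passed. Ost4 and Tmem258, small shared subunits, were below background on all arrays. Mlec, malectin, an ER lectin that associates with ribophorin I, averaged 164 ± 23.8 units in the SCC and 107 ± 43.5 in cytoplasts (adjusted p = 0.149).

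Of 27 tested genes that build the donor glycan on dolichol, 7 rose in the SCC against the cytoplast and 0 fell, with a list median log2 difference of 0.08, against 0.11 after cyclic loess and 0.10 after quantile normalization. Alg10b, which adds the last glucose, averaged 2630 ± 373 units in the SCC and 1414 ± 210 in cytoplasts, 1.86-fold (adjusted p = 0.0167). Alg2, an early mannosyltransferase, was 1.65-fold (0.0343), Nus1, a subunit of the enzyme that makes the dolichol chain, 1.53-fold (0.0149), and Alg8, a glucosyltransferase, 1.51-fold (0.0223). Gnpnat1, which acts in the supply of UDP-GlcNAc, was 1.45-fold (0.0297). Alg14, part of the enzyme for the second sugar, passed (0.0386). Only 1 of 3 SCC arrays and no cytoplast array was above background for Alg14, so no fold is given. Alg11 passed (0.0357) with all arrays below background in both groups, so no fold is given.

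Among 22 tested genes of glycan trimming and ER quality control, 5 rose and 0 fell, and the list median was 0.33, against 0.21 after cyclic loess and 0.19 after quantile normalization. Syvn1, the ubiquitin ligase HRD1 of ER-associated degradation, read 333, 565 and 665 units in the SCC, against 201, 147, 258 and 192 in cytoplasts, 2.56-fold (adjusted p = 0.0124). Edem1 and Edem3, which act on mannose-trimmed misfolded glycoproteins, were 1.95-fold (0.00453) and 2.14-fold (0.0135), and Mcfd2, a cofactor of the cargo receptor LMAN1, 1.66-fold (0.0197). Lman2, a lectin of the secretory pathway, passed (0.0209) below background.

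Of 22 tested genes of the translocon and signal peptidase, 5 rose and 0 fell, with a median of 0.28, which was 0.0067 after cyclic loess and 0.028 after quantile normalization. Spcs2, a signal peptidase subunit, read 514, 623 and 597 units in the SCC, against 221, 218, 208 and 268 in cytoplasts and 278, 308 and 283 in MII oocytes. It was 2.53-fold the cytoplast (adjusted p = 0.00128) and 1.99-fold the MII oocyte (adjusted p = 0.0262), the one gene of these 4 lists to pass against the MII oocyte. Sec11a, a catalytic signal peptidase subunit, was 2.02-fold the cytoplast (0.0117), Tram1, a translocon-associated membrane protein, 1.79-fold (0.0277), Srp9, of the signal recognition particle, 1.74-fold (0.0260), and Ssr3, of the TRAP complex at the translocon, 1.65-fold (0.0165). Against the 8.02% of all genes that rose, the shares of these lists are descriptions. Against the MII oocyte, quantile normalization left 0 calls in the translocon list and cyclic loess 1. No probe set, that of Spcs2 included, passed there without SCC replicate 2, SCC replicate 3, cytoplast replicate 1 or MII oocyte replicate 2. None did with only these 2 groups fitted either. Against the cytoplast, after cyclic loess the calls were 1 for assembly, 3 for trimming and 1 for the translocon, and after quantile normalization 1, 2 and 1.

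**Figure D5:**
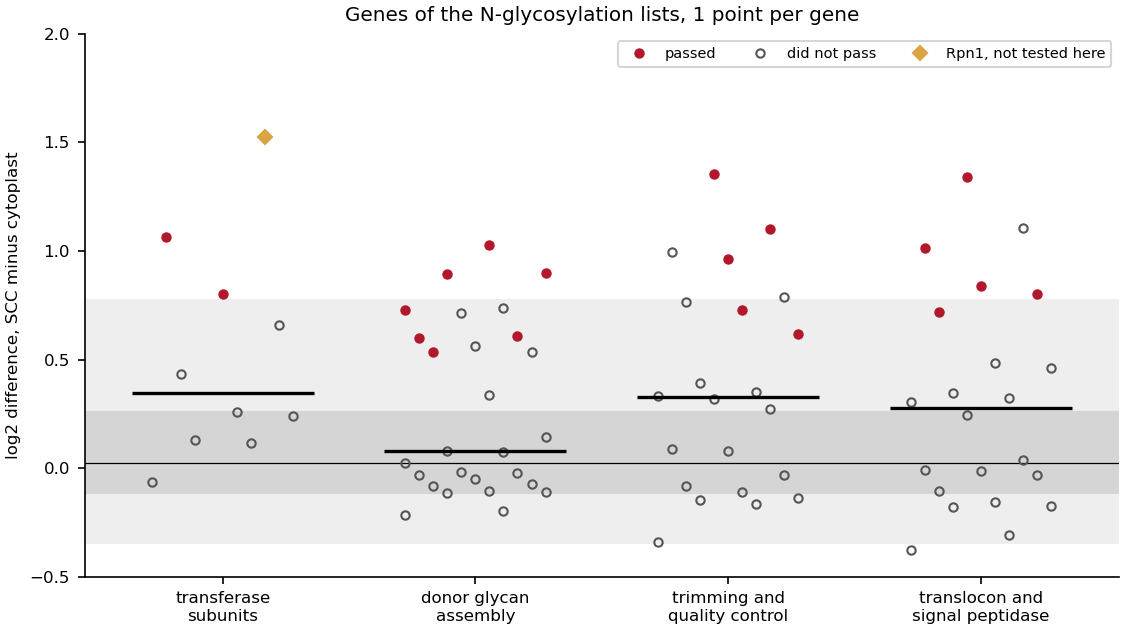
Log2 difference of SCC minus cytoplast for each tested gene of the family and of 3 lists around it, 1 point per gene, filled where the test was passed, with a bar at each list's median. The dark and light grey bands hold the middle of all genes from the 25th to the 75th percentile (-0.12 to 0.26) and from the 5th to the 95th (-0.35 to 0.77), and the line is their median, 0.02. Every gene that passed lies above the dark band.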

How the data were processed

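Per the labels, oocytes were collected 16 h after human chorionic gonadotropin (5 IU, given 48 h after the equine hormone), up to 50 ng of total RNA was amplified in 2 rounds, and 10 µg of labelled cRNA was hybridised to each array. The deposited values are intensity values on a linear scale. RMA (background correction, normalization, summary of probes) is named in the submitters' processing notes, in a version and with settings not given in the sources used here. Of 45101 probe sets, 64 are controls and 34945 name 1 gene, 932 several and 9160 none; 34741 of those with 1 gene matched RefSeq (GRCm38.p6) by gene ID.

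Here log2 was taken, and probe sets brighter than the median of their array on 3 or more arrays were kept (23737). A gene's value is its kept probe set with the highest mean. Groups come from the sample titles. limma 3.58.1 in R 4.3.3 was fitted to all 10 arrays with 1 mean per group, with Benjamini-Hochberg adjustment over 23737 probe sets and a threshold of 0.05. Where a group had no array above background, no fold is given. The number of arrays limits precision. Named genes were all members, list genes past the threshold or among the 3 smallest p of a list, and the 5 genes most like Rpn1. The members and lists were chosen with earlier results of these data known. Same-numbered arrays deviated together in mean r 0.02 over 8 pairs (-0.304 to 0.614), so the numbers were not taken to pair samples. Between cytoplast and MII oocyte, r was 0.614 for replicate 3, 0.307 for replicate 4 and -0.304 for replicate 2. Their control levels were 9.66 and 9.62 for replicate 3 and 10.90 and 11.08 for replicate 4, against 10.03 and 10.88 for replicate 2. A batch shared by some of the numbers was not tested. The alternatives were other normalizations, filters, gene values, covariates and left-out arrays.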

Additional observations from a re-analysis of the deposited data

Results flagged for a closer look

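Among the 4 cytoplast arrays, replicate 1 stood far from the other 3 for 1419459_a_at, the dim second probe set of Magt1: it read 21.9 units, against 19.8, 19.6 and 19.9 on replicates 2, 3 and 4. All 4 values lie below background. The gap to its nearest neighbour took up more of the group's range than Dixon's 95% critical value allows for 4 samples. This was 1 of 21 probe sets examined in that way, and chance alone marks about 1 in 20 groups.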

How the results depend on the processing

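With 3, 4 and 3 arrays, the number of calls moved with the scaling and with single arrays. Between SCC and cytoplast, 2 of the 9 genes other than Rpn1 passed, 1 after cyclic loess (Ostc), 0 after quantile normalization, and 1 to 3 when 1 array was left out (Tusc3 alone without SCC replicate 3; Ostc, Tusc3 and Stt3a without MII oocyte replicate 3). The count was 3 with the hybridisation control level as a covariate, with the mean of a gene's probe sets, and with sets not of the x type, the last chosen after seeing the data. Between SCC and MII oocyte it was 0, but 1 with the control level as a covariate (Tusc3) and 0 to 2 with 1 array left out (Tusc3 and Magt1 without MII oocyte replicate 3). Between cytoplast and MII oocyte it stayed 0 in all alternatives run. With the replicate block, 2 genes passed against the cytoplast and 0 against the MII oocyte, and the Stt3a to Stt3b difference of SCC and cytoplast was 0.52 over pairs. Over all probe sets, 1599 rose and 65 fell in the SCC against the cytoplast. The counts were 503 and 120 after cyclic loess, 419 and 153 after quantile normalization and 2732 and 285 with the control covariate. They were 271 and 1 without SCC replicate 2 and 243 and 2 without SCC replicate 3. They were 578 and 7 without cytoplast replicate 1, 678 and 10 without cytoplast replicate 2 and 2044 and 191 without MII oocyte replicate 3. Against the MII oocyte 10 rose and 0 fell, 295 and 14 with the control covariate and 444 and 253 without MII oocyte replicate 3. None rose or fell there without SCC replicate 2, SCC replicate 3, cytoplast replicate 1 or MII oocyte replicate 2. The same held with only the 2 groups fitted. The cause was not tested. 1450841_at of Stt3a passed against the cytoplast in each alternative (adjusted p 0.0014 to 0.0318); 1423033_at did not after either scaling. The Rpn1 difference from the cytoplast was 1.06 as a mean of its probe sets and 1.17 from its set not of the x type.

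Differences that changed sign were all uncalled. SCC minus cytoplast became -0.17 for Dad1 and -0.19 for Stt3b after cyclic loess, and -0.18 and -0.13 after quantile normalization. SCC minus MII oocyte became -0.054 for Dad1 and -0.10 for Stt3b after loess, and -0.079 and -0.10 after quantile normalization. Cytoplast minus MII oocyte became 0.11 for Dad1, 0.094 for Stt3b and 0.045 for Magt1 after loess, 0.10, 0.029 and 0.046 after quantile normalization, and for Dad1 0.085 with the control covariate and 0.0053 from the set not of the x type. With 1 array left out, SCC minus cytoplast ran from -0.041 to 0.37 for Dad1. SCC minus MII oocyte ran from -0.18 to 0.10 for Rpn2, -0.25 to 0.31 for Dad1 and -0.20 to 0.16 for Stt3b. Cytoplast minus MII oocyte ran from -0.17 to 0.012 for Ddost, -0.37 to 0.19 for Dad1, -0.19 to 0.28 for Magt1, -0.047 to 0.25 for Krtcap2, -0.33 to 0.029 for Stt3b and -0.12 to 0.17 for Rpn2.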
